A study of Mus musculus with 4 samples.

Results

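The erythroid genes described here are 9 genes that mark cells of the red cell lineage, from the erythropoietin receptor of early progenitors to the globins and membrane proteins of the mature cell: Hba-a1, Alas2, Slc4a1, Epb42, Car1, Car2, Klf1, Epor and Ahsp. They were looked up by name among the 22911 gene symbols that the array's accessions gave through RefSeq, and 8 of the 9 were matched, by 12 of the 32994 named probes. Ahsp could not be matched to a probe and was not analysed here. Their signals were read on the 4 arrays of the study, which compared cells sorted from subcutaneous Bcr-Abl+ tumors of wild-type (Wt) mice and of mice lacking Sipa1 (Sipa1-/-), a gene for a regulator of Rap1 signaling. One pair of arrays held mesenchymal stroma cells (MSCs), sorted as GFP- CD45- Ter119- CD31-, and the other held CD8+ T cells, sorted as GFP- TCRb+ CD8+.

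All mice were of strain C57BL/6Ncr and 8 weeks old, 5 mice per genotype were used, and the tumors were taken on day 12 after injection of 15000 cells per mouse. The injected cells were hematopoietic progenitors from Wt mice that carried p210 Bcr-Abl and GFP on a retrovirus, so the GFP- gates were set to leave the tumor cells out in both genotypes. The Sipa1 loss is in every cell of the host. The MSC sort did not use PDGFRa, and the sort of CD8+ T cells names no Ter119 stain. Each of the 4 groups was measured on 1 array, and the sources used here do not say how many of the 5 mice each array holds. There is therefore no replicate and no test, and every difference below is between 2 arrays.

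Red cells form in the bone marrow, and in the mouse also in the spleen, from progenitors that depend on erythropoietin and its receptor. The transcription factors Gata1, Tal1 and Klf1 then switch on the genes for the globin chains, for heme synthesis and for the membrane skeleton, and the cell takes up iron through the transferrin receptor. The maturing cell loses its nucleus, and the young red cell (reticulocyte) keeps messenger RNA for a time. The antibody Ter119 binds cells of the lineage from the erythroblast stages to the mature red cell, and was used to remove such cells from the MSC sort.

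Because these genes share their main regulators, the 250 bases before the start of each gene were read from the RefSeq promoter table (GRCm38.p6), which held 5 of the 9 genes. They are printed 5′ to 3′ in the direction of the gene, in lower case, with each match to AGATAA or TGATAA, the letters that Gata1 is known to favor, in capitals (TTATCT or TTATCA is the same site on the other strand). The windows are chr11:32283422-32283671 on the plus strand for Hba-a1, chrX:150547167-150547416 on the plus strand for Alas2, chr2:121036878-121037127 on the minus strand for Epb42, chr8:84901732-84901981 on the plus strand for Klf1 and chr9:21963577-21963826 on the minus strand for Epor.
Hba-a1: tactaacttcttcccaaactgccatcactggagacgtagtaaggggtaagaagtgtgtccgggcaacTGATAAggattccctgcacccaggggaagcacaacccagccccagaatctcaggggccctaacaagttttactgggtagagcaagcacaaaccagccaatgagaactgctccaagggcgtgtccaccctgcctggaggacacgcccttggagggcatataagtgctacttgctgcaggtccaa
Alas2: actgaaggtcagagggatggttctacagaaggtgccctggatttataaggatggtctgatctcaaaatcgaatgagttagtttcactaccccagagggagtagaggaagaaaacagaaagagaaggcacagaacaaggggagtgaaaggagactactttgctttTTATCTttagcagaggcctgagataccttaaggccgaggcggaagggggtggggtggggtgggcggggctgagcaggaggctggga
Epb42: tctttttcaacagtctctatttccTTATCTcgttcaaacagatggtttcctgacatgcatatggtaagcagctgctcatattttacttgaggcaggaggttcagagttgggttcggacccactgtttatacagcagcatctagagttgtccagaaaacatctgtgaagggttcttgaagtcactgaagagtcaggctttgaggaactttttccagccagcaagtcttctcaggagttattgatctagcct
Klf1: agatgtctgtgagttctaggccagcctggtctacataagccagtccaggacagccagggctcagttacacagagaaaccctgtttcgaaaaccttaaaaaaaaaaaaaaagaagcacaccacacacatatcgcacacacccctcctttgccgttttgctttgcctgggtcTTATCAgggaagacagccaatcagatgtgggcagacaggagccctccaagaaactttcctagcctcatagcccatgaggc
Epor: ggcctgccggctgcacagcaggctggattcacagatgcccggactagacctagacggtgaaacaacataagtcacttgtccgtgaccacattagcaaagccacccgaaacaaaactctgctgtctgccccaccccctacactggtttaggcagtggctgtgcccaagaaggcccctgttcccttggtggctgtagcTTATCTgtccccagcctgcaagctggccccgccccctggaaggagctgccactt
Each of the 5 windows held 1 such match, and a match was in 16.6% of the 32851 promoters in the table (5452 promoters, both strands searched). The match ended 49 bases before the start in Epor, 75 in Klf1, 81 in Alas2, 178 in Hba-a1 and 221 in Epb42. The letters CCACACCC, a box that Klf1 is known to bind, were in 0 of the 5 windows on either strand and in 3.2% of all promoters. A match describes the sequence and is not a binding site, and a window without these letters says nothing about the factor. Slc4a1, Car1, Car2 and Ahsp were the members without an entry.

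The labelled cells were checked against their own markers first. On the 2 MSC arrays, 12 of 12 fibroblast markers were well above background, and the brightest signal of the list was that of Col1a2, a chain of type I collagen. On the 2 arrays of CD8+ T cells, 9 of 9 T cell markers were well above background, with Thy1 the brightest, and these markers had median log2 ratios of MSCs over CD8+ T cells of -6.29 in Wt and -6.66 in Sipa1-/- mice, against 4.94 and 4.85 for the fibroblast markers. Neither sort was free of the other's markers, since 8 of 9 T cell markers were well above background in Wt MSCs (Cd8a was not) and 9 of 9 in Sipa1-/- MSCs, and 12 of 12 fibroblast markers were on both arrays of CD8+ T cells. Both Sipa1 probes were lower in Sipa1-/- cells, with log2 ratios of -1.25 and -1.59 in MSCs and of -1.67 and -2.05 in CD8+ T cells, and both were still well above background there. Where these probes lie relative to the deleted part of the gene is not given in the sources used here.

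Signals below are log2 values relative to the 75th percentile of the spots on the same array, so that 0 is that percentile and 1 unit is a 2-fold difference. A probe's brightness also depends on its sequence, so levels of different probes are not compared as expression. The brightest gene of a marker list, and a summed level, describe the array signal only. Hba-a1, which encodes the alpha chain of adult hemoglobin, had 2 probes, each printed in 10 spots. Its probe 1 read 8.72 in Wt MSCs, 8.78 in Sipa1-/- MSCs, 4.09 in Wt CD8+ T cells and 2.97 in Sipa1-/- CD8+ T cells, with SDs between spots of 0.09, 0.10, 0.07 and 0.07. Its probe 2 read 7.87, 8.00, 1.97 and 0.90 on the same arrays. Both probes put the MSC arrays far above the arrays of CD8+ T cells and the Wt CD8+ T cells above the Sipa1-/- ones. The spot SDs cover variation within an array only and say nothing of the spread between mice or sorts. Hba-a2, the near-identical copy of this gene, read 8.64, 8.71, 4.02 and 2.89, and how the probes divide the signal of the 2 copies is uncertain.

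Alas2, the erythroid form of the enzyme for the first step of heme synthesis, read 3.81 in Wt MSCs, 3.84 in Sipa1-/- MSCs, -2.47 in Wt CD8+ T cells and -3.65 in Sipa1-/- CD8+ T cells. Slc4a1, the anion exchanger band 3 of the red cell membrane, read 5.09, 5.01, -1.30 and -2.58 in the same order. For both genes the MSC arrays were nearly equal and the Sipa1-/- CD8+ T cells were the lowest of the 4. Epb42, a membrane skeleton protein that binds band 3, read -1.01 in Wt MSCs and -1.28 in Sipa1-/- MSCs, and its probe was not well above background on either array of CD8+ T cells.

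Car2, a carbonic anhydrase of red cells that other tissues also use, read 5.07 in Wt MSCs, 4.24 in Sipa1-/- MSCs, -0.11 in Wt CD8+ T cells and -1.19 in Sipa1-/- CD8+ T cells. Here the Sipa1-/- array was the lower of the pair in both sorts. Car1, the other carbonic anhydrase of red cells, had 2 probes. Probe 1 read 0.86, 0.60, -2.87 and -2.69, and it was the only member probe measured on both arrays of CD8+ T cells that did not read lower in the Sipa1-/- cells. Probe 2 read 0.00 in Wt MSCs and -0.45 in Sipa1-/- MSCs and was not well above background in CD8+ T cells of either genotype.

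Klf1, the transcription factor that drives the adult beta globin gene and many other erythroid genes, had 2 probes. Probe 1 read 1.13 in Wt MSCs, 0.51 in Sipa1-/- MSCs, -4.14 in Wt CD8+ T cells and -4.86 in Sipa1-/- CD8+ T cells. Probe 2 read 0.88 and 0.31 in the MSCs and -5.14 in Wt CD8+ T cells, where its local background carried a non-uniformity flag, and was not well above background in Sipa1-/- CD8+ T cells. Epor, the receptor through which erythropoietin acts, read 2.64, 2.15, -3.17 and -4.22 with probe 1. Epor probe 2 read -1.87 in Wt MSCs and -2.36 in Sipa1-/- MSCs and was not well above background in CD8+ T cells. The 12 probes shared 1 order of the sorts, with both MSC arrays above both arrays of CD8+ T cells in 12 of 12. Of the 12, 3 were not well above background in Wt CD8+ T cells and 4 in Sipa1-/- CD8+ T cells. The share of all probes with this order was not counted.

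**Figure D1:**
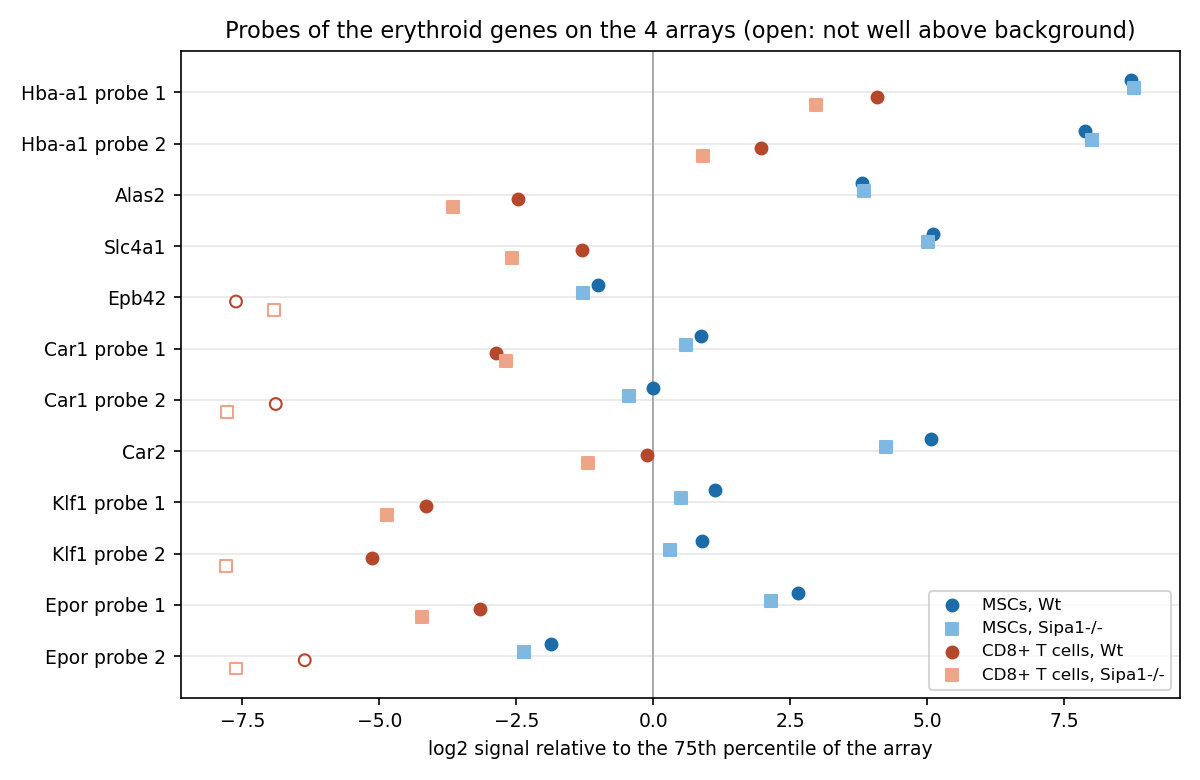
Log2 signal of the 12 member probes relative to the 75th percentile of each array (horizontal axis), 1 point per array, with open points where the probe was not well above background. Both MSC points lie to the right of both CD8+ T cell points for every probe, and the 2 MSC points of Hba-a1, Alas2 and Slc4a1 nearly coincide.

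A gene's ratio was taken over its probes that passed the study's flags on both arrays of a pair, and a gene was counted as different at a ratio of 2-fold or more, a log2 ratio of 1. Between MSCs and CD8+ T cells of Wt mice, 7 of the 7 members measured on both arrays were at least 2-fold higher in MSCs, where 17.3% of the 14225 genes tested were higher and 12.8% lower by that much. The ratios were 38.5-fold for Hba-a1, 77.7-fold for Alas2, 84.3-fold for Slc4a1, 36.1-fold for Car2, 38.7-fold for Klf1, 56.0-fold for Epor and 13.3-fold for Car1. The median log2 ratio of the 7 was 5.27, and that of all genes was -0.06. Slc4a1 was at place 17 and Alas2 at place 26 from the top of all genes tested. Car1 was the member farthest down, at place 601, by its probe 1 alone. Its probe 2 did not enter the ratio and was at least 98.9-fold higher in Wt MSCs. The 2 probes of Hba-a1 gave log2 ratios of 4.64 and 5.90, so the size of its ratio depends on the probe, though no spot was saturated.

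In Sipa1-/- mice the 7 measured members were again at least 2-fold higher in MSCs, where 21.9% of 14301 genes were higher and 18.7% lower by that much. The ratios were 87.7-fold for Hba-a1, 180-fold for Alas2, 193-fold for Slc4a1, 43.2-fold for Car2, 41.3-fold for Klf1, 82.6-fold for Epor and 9.75-fold for Car1. Slc4a1 stood at place 6 and Alas2 at place 8 of all genes tested. The median log2 ratio was 6.37, and that of all genes was -0.18. For Hba-a1, Alas2 and Slc4a1 the ratio in Sipa1-/- mice was more than 2-fold the ratio in Wt mice, and their MSC signals differed little between the genotypes, with log2 ratios of 0.09, 0.03 and -0.08. The difference between the genotypes in these ratios was not tested, and the 2 comparisons of sorts use the same arrays as the 2 comparisons of genotypes below.

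Probes dim on the arrays of CD8+ T cells gave lower bounds. A bound sets the MSC signal against the higher of the probe's own signal and the dimmest signal well above background on the other array. Epb42 was at least 49.0-fold higher in MSCs in Wt mice and at least 49.96-fold in Sipa1-/- mice. Car1 probe 2 was at least 98.9-fold and 108-fold higher, and Epor probe 2 at least 22.4-fold and 28.6-fold higher. Klf1 probe 2 was at least 183-fold higher in MSCs of Sipa1-/- mice. With Epb42, 8 of the 8 matched genes thus read higher in MSCs than in CD8+ T cells of both genotypes. Markers of other blood cells also differed between the sorts. B-lineage markers were at least 2-fold higher in Wt MSCs in 10 of 11 cases (median log2 ratio 4.29) and in Sipa1-/- MSCs in 4 of 11 (0.09), and granulocyte markers in 4 of 11 (0.03) and 9 of 11 (1.40). Common leukocyte markers were at least 2-fold lower in Wt MSCs in 9 of 10 cases (-2.02) and in Sipa1-/- MSCs in 10 of 10 (-3.73). Macrophage markers were lower in 7 of 11 (-1.24) and 5 of 12 (-0.06), and mast cell and basophil markers in 4 of 9 (-0.96) and 1 of 9 (0.06). In each of these last 2 lists, 1 marker was higher in Wt MSCs and 2 in Sipa1-/- MSCs. Their part in the erythroid ratios was not tested. In such sorted samples a larger number of erythroid cells and more erythroid RNA per cell cannot be told apart.

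**Figure D2:**
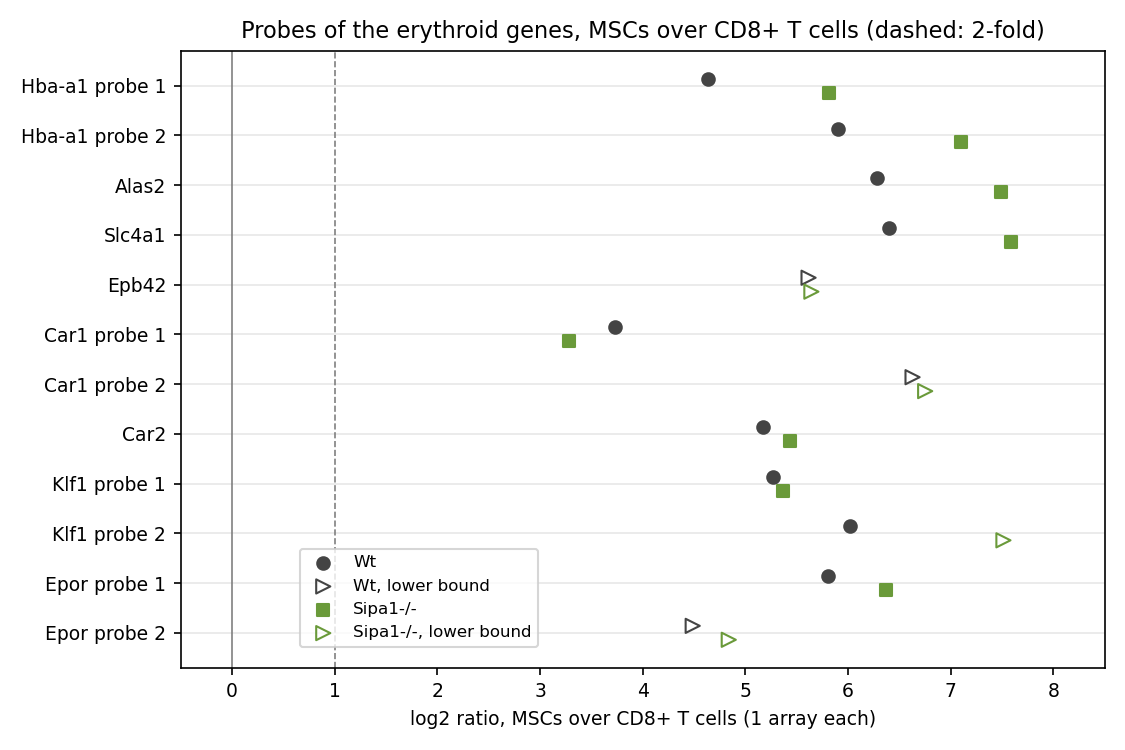
Log2 ratio of MSCs over CD8+ T cells for each member probe (horizontal axis) in Wt mice (gray circles) and Sipa1-/- mice (green squares), with open triangles for lower bounds. All points lie to the right of the dashed 2-fold line, between 3.29 and 7.59 for the measured ratios. Klf1 probe 2 carried a background flag in Wt CD8+ T cells.

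The probes of the other adult globins followed the same order of arrays. Hbb-bt, a beta globin of adult red cells, read 7.95 in Wt MSCs, 8.10 in Sipa1-/- MSCs, 2.62 in Wt CD8+ T cells and 1.37 in Sipa1-/- CD8+ T cells. Hbb-b1 read 4.62, 4.68, -1.74 and -2.61, and Hbb-b2 read 5.73, 5.81, -0.32 and -1.51. Beta globin genes are near-identical copies too, and their probes may share signal. Which of these genes the C57BL/6Ncr mice carry was not checked, so Hbb-b1 and Hbb-b2 name the probes. Counts of globins may hold 1 signal more than once. Hbb-bs could not be matched. The embryonic globins did not share the pattern. Hba-x and Hbb-y were not well above background on any array, and Hbb-bh1 read -4.94, -4.57, -4.71 and -4.83, with no 2-fold difference in any of the 4 comparisons. Of the 5 globins measured on both arrays, 4 were at least 2-fold higher in MSCs than in CD8+ T cells in each genotype.

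The remaining erythroid and related genes were read from lists of 96 genes on the array in all, globins and carbonic anhydrases included. Of the genes for red cell surface and membrane skeleton proteins measured on both arrays, 11 of 13 were at least 2-fold higher in Wt MSCs than in Wt CD8+ T cells and 1 was lower, with a median log2 ratio of 5.08. In Sipa1-/- mice the counts were 8 of 11 and 1. Rhd, a protein of the Rh complex, had probes that read 4.13, 3.87, -2.19 and -3.80 and 2.67, 2.20, -3.48 and -4.80. Tspo2, an erythroid protein of cholesterol traffic, read 3.51, 3.66, -1.78 and -2.24. Aqp1, the water channel of red cells and of endothelium, read 4.37, 3.90, 0.51 and 0.80. The lower gene was Slc14a1, a urea transporter, with log2 ratios of -1.20 in Wt and -1.34 in Sipa1-/- mice.

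Heme and iron genes were higher in MSCs by smaller ratios, 12 of 15 by at least 2-fold in Wt mice (median log2 ratio 1.95) and 12 of 14 in Sipa1-/- mice (2.12), and none was lower by that much. Fech, which puts the iron into heme, read 3.83 in Wt MSCs, 4.02 in Sipa1-/- MSCs, 1.13 in Wt CD8+ T cells and 1.08 in Sipa1-/- CD8+ T cells. Tfrc, the transferrin receptor that dividing cells of many types also carry, read 3.36, 2.45, 0.49 and -0.24 with its probe 1. Blvrb, a reductase abundant in red cells, had log2 ratios of MSCs over CD8+ T cells of 3.88 in Wt and 3.61 in Sipa1-/- mice. Most cells make heme, and these genes were also well above background on the arrays of CD8+ T cells, 15 of 15 in each genotype.

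Among the transcription factors of the lineage, Gata1 read 3.08 in Wt MSCs, 2.53 in Sipa1-/- MSCs, -1.90 in Wt CD8+ T cells and -2.31 in Sipa1-/- CD8+ T cells. Tal1, which binds DNA in a complex with Gata1, read 2.30, 2.01, -3.42 and -4.64. Nfe2, a factor of globin expression and platelet formation, read 2.77, 2.59, 0.00 and -1.03. For these 3 factors both MSC arrays were above both arrays of CD8+ T cells, as for the members, and Wt was above Sipa1-/- in each sort. Of the 14 factors measured in both sorts, 10 passed 2-fold in favor of MSCs and 0 in favor of CD8+ T cells in Wt mice, and 7 and 3 did so in Sipa1-/- mice. The 3 of 14 are near the 18.7% of all genes that were lower in Sipa1-/- MSCs. Hemgn is in both the 10 and the 3, though neither of its probes changed sign. Some factors on the list also act in other blood lineages, such as Myb, Lyl1 and Bcl11a, whose Wt MSC signals were the highest of the 4.

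Erythropoietin itself, which the kidney makes, was not well above background on any array. Of the other genes of its signaling path, 4 of 12 passed 2-fold in favor of MSCs and 3 in favor of CD8+ T cells in Wt mice, and 3 and 2 did so in Sipa1-/- mice. Cish, a feedback inhibitor induced through Stat5, read 2.88, 3.0, 0.76 and 1.25. Genes of red cell enzymes and late maturation were at least 2-fold higher in MSCs in 9 of 13 cases in Wt and 7 of 12 in Sipa1-/- mice, with none lower. Bpgm, which makes the red cell's regulator of oxygen release, read 1.29, 1.54, 0.00 and -0.23. Over all the 7 lists, 52 of 80 measured genes were higher and 5 lower by at least 2-fold in Wt MSCs, and 45 of 76 were higher and 6 lower in Sipa1-/- MSCs. Of all genes, 17.3% were higher and 12.8% lower in Wt MSCs, and 21.9% and 18.7% in Sipa1-/- MSCs. For erythropoietin signaling, the Sipa1-/- counts of 3 and 2 of 12 are near these shares. The Wt counts of 4 and 3 of 12 are above them in both directions.

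The next comparison asks whether loss of Sipa1 in the host went with a different erythroid signal in the MSC sort. In MSCs, 0 of the 8 members differed by 2-fold between the genotypes in either direction, where 19.3% of 15298 genes were higher and 11.3% lower by that much in Sipa1-/- MSCs. The log2 ratios of Sipa1-/- over Wt were 0.09 for Hba-a1, 0.03 for Alas2 and -0.08 for Slc4a1, and the sign of each of these 3 depended on how the arrays were scaled. They were -0.27 for Epb42, -0.36 for Car1, -0.49 for Epor, -0.60 for Klf1 and -0.82 for Car2, negative under every scaling tried. The median over the 8 was -0.31, and that over all genes was 0.04. For comparison, probes of 1 gene differed in this ratio with a median SD of 0.14.

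The genes of the 7 erythroid and related lists were read in the same MSC arrays. Of 89 measured, 9 passed 2-fold downward with loss of Sipa1 and 6 upward, with a median log2 ratio of -0.26. The 6 were Socs3 and 5 carbonic anhydrases, a list that also holds forms of other tissues. No gene of the remaining lists rose by that much. The share of all genes was 11.3% lower and 19.3% higher, so the lower share on the lists is near the background. The 5 measured globins had log2 ratios of 0.06 to 0.36. Gata1 stood at -0.54 and Tal1 at -0.29, and the probes of Tfrc at -0.91 and -0.86. Of the genes for surface and membrane skeleton proteins 0 of 18 passed 2-fold (median -0.32), and 0 of 15 heme and iron genes (-0.30) and 0 of 15 genes of red cell enzymes and late maturation (-0.20) did. The factors on the list that passed 2-fold were Myb, Bcl11a, Lyl1 and Zfpm1, all lower in Sipa1-/- MSCs, with log2 ratios of -3.34, -2.60, -2.55 and -1.38. These 4 are also active in other blood cells, and markers of the B lineage were lower on the same array. Of the genes of erythropoietin signaling, 5 of 12 were at least 2-fold lower in Sipa1-/- MSCs, namely Lyn (-1.77), Socs2 (-1.59), Ptpn6 (-1.56), Sh2b3 (-1.17) and Bcl2l1 (-1.07), and 1 was higher, the feedback inhibitor Socs3 (1.04). Lyn, Ptpn6 and Sh2b3 act in white blood cells as well. Common leukocyte markers were at least 2-fold lower in Sipa1-/- MSCs in 9 of 10 cases, with 0 higher (median log2 ratio -2.01). Hematopoietic progenitor markers were at least 2-fold higher in 6 of 9 cases (median 1.56) and lower in 1, Cd48 (-3.10). Kit (-0.26) and Flt3 (-0.33) were within 2-fold. Cd34 made up 70.0% and 81.4% of that list's summed level in Wt and Sipa1-/- MSCs. The part of leukocytes or progenitors in these ratios, and of the sorted stroma in the progenitor markers, was not tested. All 11 B-lineage markers measured on both MSC arrays were at least 2-fold lower in Sipa1-/- MSCs (median log2 ratio -4.16). In units of the 75th percentile, their summed level was 692 in Wt MSCs and 42.9 in Sipa1-/- MSCs. It was 32.8 in Wt CD8+ T cells and 24.8 in Sipa1-/- CD8+ T cells. Vpreb1, a part of the pre-B cell receptor, was the brightest of them in Wt MSCs, Rag1 was not well above background in Sipa1-/- MSCs, and the part of these cells, which the CD45- gate is set to remove, in the ratios of the factors and signaling genes was not tested.

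Fibroblast markers went the other way, with 7 of 11 at least 2-fold higher in Sipa1-/- MSCs, a median log2 ratio of 1.14, a summed level of 1023 in Wt MSCs and 1670 in Sipa1-/- MSCs and none of the 12 below background. The summed level of the 8 erythroid members was 417 in Wt MSCs and 418 in Sipa1-/- MSCs, sums of which Hba-a1 alone made up 78.7% and 83.1%. Of the 8 members 6 had ratios below 0, where 7916 of all 15298 genes had ratios above 0. The count of 6 depended on the scaling, since the signs of Hba-a1, Alas2 and Slc4a1 did. Markers of megakaryocytes and platelets, which share Gata1, Tal1 and Nfe2 with the red cell lineage, summed to 2.24 and 3.69, with Pf4 the brightest in Wt MSCs and Gp1ba not well above background in Sipa1-/- MSCs. Markers of endothelium, which shares Aqp1 and which the CD31- gate removes, summed to 6.24 and 4.59, with Egfl7 the brightest and Cldn5 not well above background in Wt MSCs. Their part in the MSC values was not tested.

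**Figure D3:**
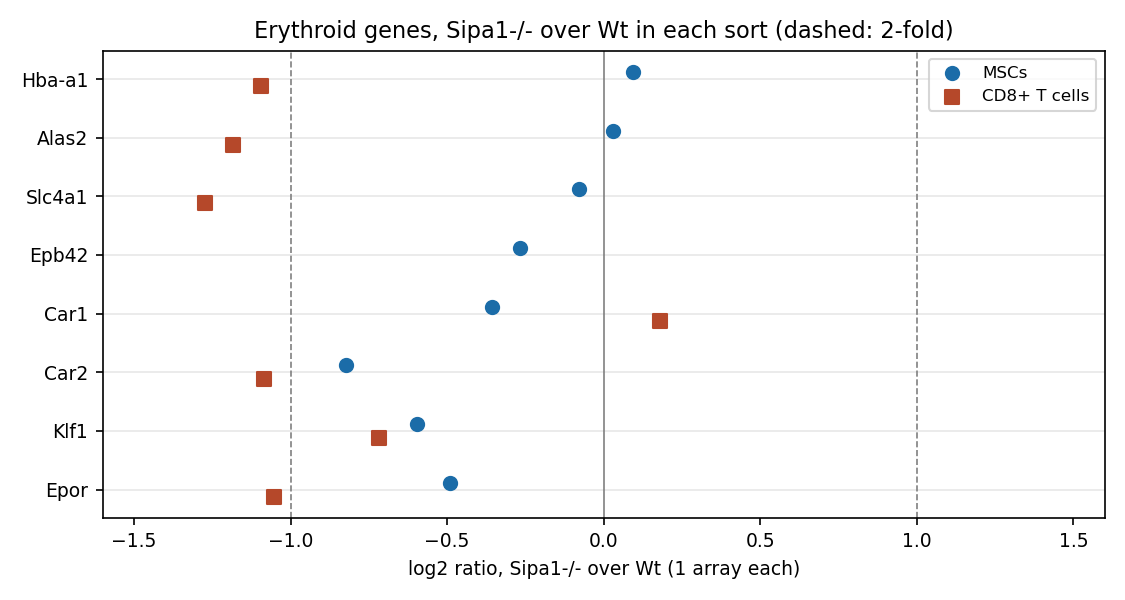
Log2 ratio of Sipa1-/- over Wt (horizontal axis, 1 array each) for the matched members in MSCs (blue circles) and in CD8+ T cells (red squares), with dashed lines at 2-fold. No MSC point passes 2-fold, 5 of the 7 CD8+ T cell points lie at or below -1, and Epb42 has no CD8+ T cell value.

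In CD8+ T cells most of the measured members were lower in the Sipa1-/- array. Of the 7 measured on both arrays, 5 were at least 2-fold lower in Sipa1-/- CD8+ T cells and 0 higher, where 1.4% of 14339 genes were lower and 2.66% higher by that much. Slc4a1 was 2.42-fold lower, Alas2 2.27-fold, Hba-a1 2.14-fold, Car2 2.12-fold and Epor 2.08-fold. Klf1 stood at a log2 ratio of -0.72 and Car1 at 0.18. The median over the 7 was -1.08 and that over all genes was -0.02, while probes of 1 gene differed in this ratio with a median SD of 0.11. The 5 genes lay at places 121 to 179 from the bottom of all genes tested.

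The calls sit close to the 2-fold line. All 5 stayed lower under each scaling and background setting tried, but 2 of the 5 remained past 2-fold with the constants of the authors' own table. With another background model (normexp, offset 50, on median spot signals) 1 member was past 2-fold. Several choices changed at once there, and the cause of the move was not tested. Of these genes only Hba-a1 had a signal above the median of the genes tested. Its probes agreed, at -1.12 and -1.07, and its spots within an array differed by SDs of 0.07 or less. With the authors' constants, however, Hba-a1 was within 2-fold, and the 2 genes past it were Slc4a1 and Alas2. Klf1 probe 2, left out of the ratio by its flags, was at least 4.18-fold lower in Sipa1-/- CD8+ T cells.

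**Figure D4:**
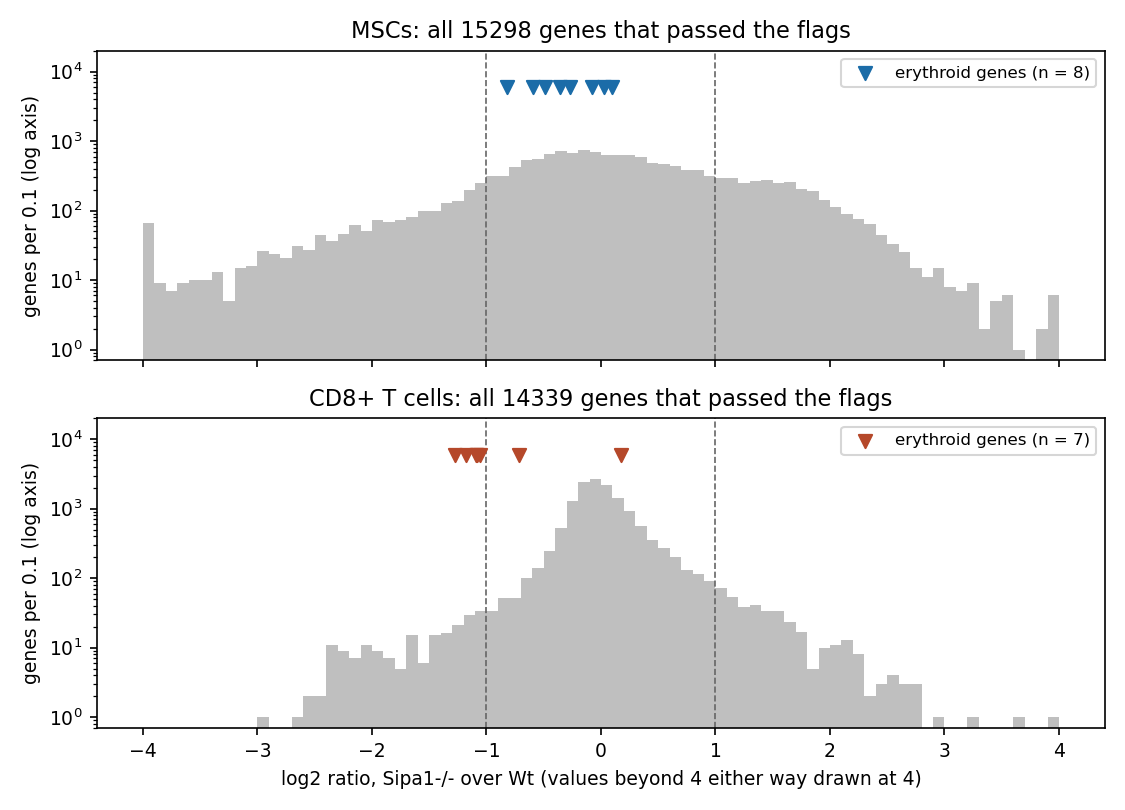
Number of genes per step of 0.1 in the log2 ratio of Sipa1-/- over Wt (gray, logarithmic vertical axis) in MSCs (top, 15298 genes) and CD8+ T cells (bottom, 14339 genes), with triangles for the erythroid members and dashed lines at 2-fold. The MSC distribution is wide and the 8 members lie between -0.82 and 0.09 within its 2-fold lines, and the CD8+ T cell distribution is narrow, with 5 of the 7 members past its lower 2-fold line.

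Most of the other erythroid and related genes did not pass 2-fold between the CD8+ T cells of the 2 genotypes. In all, 7 of the 75 listed genes measured were at least 2-fold lower and 1 higher in Sipa1-/- cells, where 1.4% of all genes were lower and 2.66% higher. These counts depended on the processing. The 7 lower became 11 with either looser flag rule, and 2 with another background model or among genes above the median signal. The median of the 75 was -0.09, and 0.038 with the authors' table. In the globin list 3 of 5 were at least 2-fold lower, Hbb-bt by a log2 ratio of -1.26, Hbb-b2 by -1.19 and Hba-a2 by -1.14. Rhd (-1.46) and Ank1, the ankyrin that ties band 3 to the skeleton (-1.61), were the 2 of 10 surface and membrane genes past 2-fold. Tal1 (-1.23) and Nfe2 (-1.04) were the 2 of 14 transcription factors, and Gata1 stood at -0.42. Heme and iron genes, 0 of 14 past 2-fold with a median of -0.08, and erythropoietin signaling genes, 0 of 12 with a median of -0.15, differed little between the genotypes. Ank1 was named after its value was seen.

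Markers of another cell type moved in the same sort. Of 11 granulocyte markers, all well above background on the 4 arrays, 9 were at least 2-fold lower in Sipa1-/- CD8+ T cells and 0 higher (median log2 ratio -1.33). Their summed level was 761 in Wt MSCs, 846 in Sipa1-/- MSCs, 653 in Wt CD8+ T cells and 339 in Sipa1-/- CD8+ T cells, and the brightest signal was that of S100a9, a calcium-binding protein of neutrophils, at 8.40, 8.496, 8.38 and 7.33. Fibroblast markers were higher in Sipa1-/- CD8+ T cells, 10 of 12 by at least 2-fold with a median log2 ratio of 1.63, at summed levels of 208 and 303, all of them above background. The brightest of that list on these arrays was Thy1, which T cells share. The T cell markers did not pass 2-fold in either direction, 0 of 9 with a median of 0.01 and summed levels of 699 and 711, Thy1 being the brightest. Of the mast cell and basophil markers 3 of 9 were at least 2-fold lower, Mcpt8, Prss34 and Hdc (log2 ratios of -2.05, -2.05 and -1.97). Of the B-lineage markers 3 of 11 were, Igll1 (-2.21), Vpreb1 (-2.04) and Vpreb3 (-1.82), and of the macrophage markers 2 of 12 were, Cd14 (-2.43) and Slc40a1, the iron exporter ferroportin (-1.17). None in these 3 lists was higher by that much. The summed level of the erythroid members was 12.2 in Wt and 5.66 in Sipa1-/- CD8+ T cells, of which Hba-a1 made up 86.0% and 85.5%. The part of these other cells in the erythroid values was not tested.

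**Figure D5:**
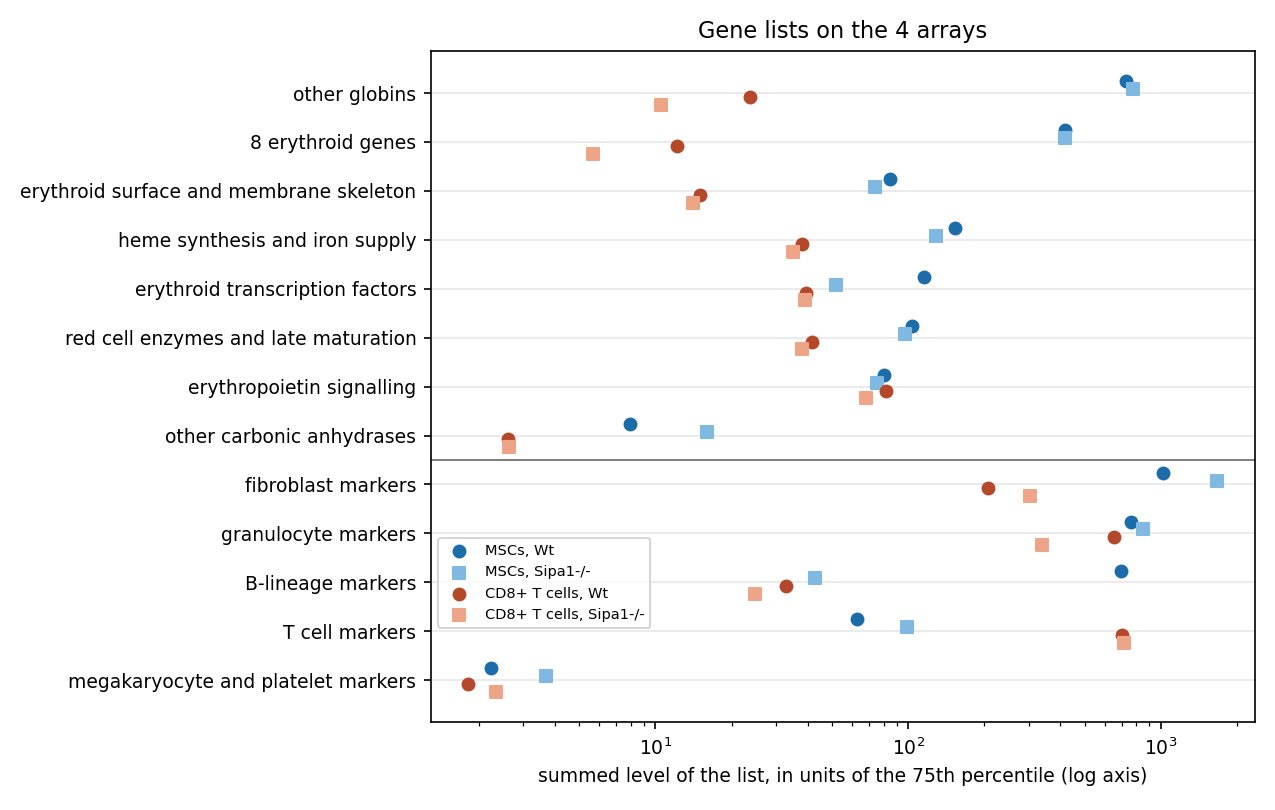
Summed level of each gene list on the 4 arrays, in units of the array's 75th percentile (logarithmic horizontal axis), with erythroid and related lists above the line and markers of other cells below it. The 8 erythroid genes and the other globins lie far to the right in MSCs of both genotypes, and in CD8+ T cells the Sipa1-/- point lies to the left of the Wt point for both.

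The patterns of Hba-a1, Alas2 and Car2 over the 4 arrays were set beside those of 7464 genes that were well above background on all arrays and varied by at least 1 log2 unit. Likeness was the Euclidean distance between the 4 log2 signals after each gene was centered on its mean, and it is a description over 4 arrays. Among the genes closest to Hba-a1 were Hbb-bt (0.21) and Tal1 (0.43). Closest to Alas2 were Slc4a1 (0.15), Hbb-b2 (0.20) and Hbb-b1 (0.23). Closest to Car2 were Klf1 (0.30), Atp1b2, a sodium pump subunit (0.57), and Hba-a2 (0.64). Atp1b2 read 1.44, 1.04, -3.92 and -4.32.

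Car1 and Car2 were also set beside the other carbonic anhydrases, of which 13 were on the array. Their values between genotypes varied widely. In MSCs 5 of 10 were at least 2-fold higher in the Sipa1-/- array and 0 lower, with a median log2 ratio of 0.77, where 19.3% of all genes were higher and 11.3% lower. Car4, a membrane-bound form, read -1.35 in Wt MSCs, 2.10 in Sipa1-/- MSCs, -4.57 in Wt CD8+ T cells and -3.54 in Sipa1-/- CD8+ T cells. Car3, a form of muscle and fat, read 1.80, 2.94, -4.59 and -4.02. Car4 was also the 1 listed gene at least 2-fold higher in Sipa1-/- CD8+ T cells, with a log2 ratio of 1.03. This call was lost with median scaling, quantile scaling, another background model and a filter on signal.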

How the data were processed

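RNA of the 4 sorts was hybridised by the authors to Agilent 1-color arrays of 62976 spots each, 59305 of them not controls, on 1 slide with 1 scan time. The deposited files hold spot intensities from Feature Extraction (version 12.0.3.1 per the file headers, 9.1 per the submitters' processing notes), background-corrected by the authors and not normalized between arrays. The series matrix holds the same intensities times a constant per array. It is linear and not centered, with constants of 1.13, 1.34, 0.94 and 1.13 for Wt and Sipa1-/- MSCs and Wt and Sipa1-/- CD8+ T cells, and how they were chosen is not given in the sources used here.

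Log2 intensities were shifted by each array's 75th percentile (signals of 472 and 459 in Wt and Sipa1-/- MSCs and 414 and 378 in Wt and Sipa1-/- CD8+ T cells). Spots were kept by the study's flags (not saturated, no non-uniformity flag, positive and significant, well above background), which left 59.7% to 64.3% of spots per array. Spots of a probe were averaged, then probes of a gene. Symbols came from RefSeq through accessions and covered 57.6% of the spots. Probes of 300 sequences printed 10 times varied with a median SD of 0.04 within an array, and with 1 array per group the number of arrays limits the precision. Python 3.11.15, pandas 2.3.3, numpy 2.4.6, R 4.3.3 and limma 3.58.1 (for background and quantile alternatives) were used, and the steps were checked on simulated data.

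Named genes were the members, each list's 4 or fewer largest genes past 2-fold per comparison with a signal above the median, a fixed set (adult beta globins, Gata1, Tal1, Fech, Sipa1), the brightest gene of each of 11 marker lists and the 3 genes most like Hba-a1, Alas2 and Car2. Ank1, Bcl2l1, Hemgn, the embryonic globins and the further carbonic anhydrases and markers were named after their values were seen, and some genes the rule names are not reported here. Members and lists were chosen with earlier results of these data known. The 8 alternatives were other flag rules, scalings, background, probe choice and a signal filter.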

Additional observations from a re-analysis of the deposited data

Results flagged for a closer look

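Hemgn, an erythroid factor, had gene ratios of MSCs over CD8+ T cells of opposite sign in Wt (log2 ratio 2.46) and Sipa1-/- mice (-1.02), but neither of its 2 probes changed sign. Probe 1 read 4.95, 4.29, 5.25 and 5.31 in Wt MSCs, Sipa1-/- MSCs, Wt CD8+ T cells and Sipa1-/- CD8+ T cells, with ratios of -0.30 in Wt and -1.02 in Sipa1-/- mice. Probe 2 had a ratio of 5.23 in Wt mice and was at least 119-fold higher in MSCs of Sipa1-/- mice, where it was not well above background in CD8+ T cells and so did not enter the gene's ratio. Myb, a factor of blood progenitors, had ratios of 1.97 in Wt and -1.13 in Sipa1-/- mice, and each of its 3 probes changed sign, from 2.09, 2.23 and 1.597 to -0.79, -1.28 and -1.33. With 1 array per group these differences between the genotypes were not tested.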

How the results depend on the processing

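With 1 array per group, no result has a replicate error, and probes near background give bounds only. No paired analysis was possible because the groups hold 1 array apiece, all with the same replicate number. The 8 alternatives all ran, and the background model used the median spot signal, since the files used here hold no mean. The median log2 ratio of the members kept its sign in the 4 comparisons under all of them. The 183 other values for lists and comparisons moved by less than the spread between probes of a gene or, for counts, by under 1.5 times. Of the values for single genes and single lists, 1178 stayed within these limits. Another 763 moved past them without reversing the sign of a value past 2-fold, though a moved value can cross the 2-fold line. Of the log2 ratios and medians past 2-fold as reported, 3 of 1065 changed sign, and of those within 2-fold 84 of 943 did, so the sign of a small ratio depends on the setting. The cause of a move was not tested unless the setting shows it.

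In MSCs, Sipa1-/- over Wt, the members' median of -0.31 became -0.45 after median scaling and -0.11 with the authors' table, and that of the 7 lists, -0.26, became -0.39 and -0.050. For all genes the 2957 higher became 1828 with the background model (normexp, offset 50) and 1307 among genes above the median signal, where 901 in place of 1733 were lower and 3 in place of 6 listed genes were higher.

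In CD8+ T cells the members' median of -1.08 became -1.23, -0.95 and -0.51 with median scaling, the authors' table and the background model, and the 5 members at least 2-fold lower became 2 with the authors' table, 1 with the background model and 1 among genes above the median signal, which keeps fewer genes. The 381 genes higher became 684 with the flags on 1 array, 1059 without flags, 108 with the background model and 67 above the median signal, and the 201 lower became 371, 633, 98 and 70. The lists' median of -0.09 became -0.24 with median scaling and 0.038 with the authors' table. Their 1 gene higher became 0 with median scaling, quantile scaling, the background model and the signal filter, and their 7 lower became 11 with either flag change and 2 with the background model or the signal filter.

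For MSCs over CD8+ T cells in Wt mice, the members' median of 5.27 was 5.48 with the flags on 1 array or none, 5.04 with median scaling, 5.51 with quantile scaling, 5.73 with the authors' table, 4.87 with the background model and 5.81 above the median signal. The 2457 genes higher became 3898, 4185 and 860 with the flags on 1 array, none and the signal filter, and the 1821 lower became 1082 with the authors' table and 861 with the filter. The lists' median of 1.97 became 2.34 with the flags on 1 array, 1.73 with median scaling, 2.42 with the authors' table, 1.82 with the brightest probe, 1.51 with the background model and 1.65 with the filter, where 32 in place of 52 genes were higher. Their 5 lower became 1 with the authors' table and 3 with the background model or the filter.

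In Sipa1-/- mice the members' median of 6.37 was 6.13 with either flag change, 6.15 with median scaling, 6.90 with the authors' table, 5.81 with the brightest probe, 4.92 with the background model and 6.97 with the filter, which left 4 in place of 7 members. The 3130 genes higher became 4738, 5019 and 1307 with the flags on 1 array, none and the filter, and the 2671 lower became 1357 with the authors' table and 1384 with the filter. The lists' median of 1.59 became 1.88 with the flags on 1 array, 1.37 with median scaling, 2.12 with the authors' table and 1.32 with the background model, with 27 in place of 45 higher under the filter and 1 in place of 6 lower with the authors' table.

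The 3 that were past 2-fold were list medians under the filter on signal: the transcription factors in Sipa1-/- mice (1.08 to -0.23) and the endothelial markers in Wt (-1.07 to 1.08) and Sipa1-/- mice (-1.26 to 0.42), all MSCs over CD8+ T cells. The authors' table moved the median of all genes by 0.21 and 0.13 in MSCs and CD8+ T cells between genotypes and by 0.45 and 0.53 between sorts in Wt and Sipa1-/- mice, and median scaling by -0.14, -0.15, -0.23 and -0.22. The share of the genes past 2-fold that were higher, 63.0%, 65.5%, 57.4% and 54.0% in these comparisons, was 74.1%, 76.3%, 76.6% and 76.2% with the authors' table and 54.1%, 52.5%, 45.5% and 42.9% with median scaling.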

Other observations

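Lists of markers of other cells that the sorts could hold gave summed levels, in units of the array's 75th percentile and in the order Wt MSCs, Sipa1-/- MSCs, Wt CD8+ T cells and Sipa1-/- CD8+ T cells, of 199, 52.4, 747 and 714 (common leukocyte, Coro1a brightest in Wt MSCs), 24.9, 38.2, 49.9 and 36.4 (macrophage and monocyte, Lyz1), 3.60, 4.55, 7.17 and 2.75 (mast cell and basophil, Hdc), 37.2, 85.2, 30.3 and 30.2 (hematopoietic progenitor, Cd34) and 50.5, 98.3, 119 and 99.1 (osteoclast, Acp5). Calcr, an osteoclast receptor, was not well above background on any array. Of the further carbonic anhydrases measured on both arrays, those at least 2-fold higher in Sipa1-/- MSCs than in Wt MSCs, beside Car3 and Car4, were Car11, Car8 and Car9, with log2 ratios of 2.29, 2.03 and 1.86. Car6, not well above background in Wt MSCs, was at least 29.3-fold higher in Sipa1-/- MSCs.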
